A study of Mus musculus with 3 samples.

Results

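The BCL-2 family decides whether the outer mitochondrial membrane of a cell stays closed. *Bcl2*, *Bcl2l1* (which encodes BCL-XL), *Mcl1* and *Bcl2a1d* (1 of the mouse genes for A1) encode proteins that hold the membrane closed. *Bax* and *Bak1* encode the effectors that open it. *Bid*, *Bcl2l11* (BIM), *Pmaip1* (NOXA) and *Bbc3* (PUMA) encode BH3-only proteins, which bind the members of both other groups through a short helix called the BH3 domain. In macrophages, A1, MCL-1 and BCL-XL are known for keeping cells alive during activation through Toll-like receptors.

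These 10 genes were taken by symbol from the gene probes of 3 microarrays. They had 22 probes and were 10 of the 26840 genes with a symbol on the array. RNA came from RAW 264.7 cells, a mouse macrophage line, and was hybridised in 1 colour, so that the brightness of a probe follows the abundance of its transcript. The cells had received LPS alone at 50 ng/mL, or *L. rhamnosus* CRL1505 or *L. plantarum* CRL1506 for 24 h at 50000000 cells/mL and then, once the lactobacilli had been washed off, LPS at the same dose. The comparisons ask how each strain altered the macrophages' state under LPS. The conditions are called LPS, CRL1505 + LPS and CRL1506 + LPS. The duration of LPS was 12 h by the description of the series and 3 h by the descriptions of the samples. Unstimulated cells were not analysed here, so that a level under LPS alone does not show what LPS itself did.

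Each condition had 1 array. There was therefore no replicate, no test and no p-value, and a difference below is one between 2 hybridisations of 1 cell line. The array of CRL1506 + LPS shared its slide and scan date with that of LPS. The CRL1505 + LPS array came from a different slide and scan date, so that CRL1505 and the slide or date cannot be told apart. Between 48.5% and 55.3% of the 59305 gene spots were well above background on an array, the lowest share being that of CRL1505 + LPS. All 9 macrophage markers checked, among them *Cd68*, *Lyz2* and *Csf1r*, were well above background on every array. *Adgre1* and *Fcgr1* had log2 ratios to LPS of 2.27 and 2.4 with CRL1505, and of 1.0 and 0.95 with CRL1506, while *Csf1r* had −1.47 and −0.87. Of the markers of other cell types, 3 of 5 T cell genes, 2 or 3 of 5 B cell genes, 0 or 1 of 4 epithelial genes, 0 to 2 of 4 fibroblast genes and 3 or 4 of 5 neutrophil genes passed the background on an array. Of the T cell genes, *Lck* had relative signals of 3.1 with LPS alone, 8.49 with CRL1505 and 4.43 with CRL1506. In the same order, *Cd3e* had 1.17, 1.05 and 1.2, and *Cd4* had 1.64, 1.64 and 1.37. *Cd3g* and *Cd8a* did not pass the background on any array. Of the neutrophil genes, *S100a9* and *Ly6g* passed the background on the CRL1505 + LPS array alone, and *Mpo* on the other arrays alone. *S100a8* and *Elane* passed it on every array, with log2 ratios to LPS of −1.31 and −0.29 with CRL1505. What part these markers had in the results below was not tested. Fewer cells of a kind and less RNA per cell also cannot be told apart in these samples.

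The unit of the levels given here is the relative signal, which is the background-subtracted intensity of a probe divided by the 75th percentile of all gene spots on the same array. It compares 1 probe across arrays and does not rank different genes, because probes differ in how well they bind. A log2 ratio is the difference of the log2 signals of the same probe on 2 arrays, and each gene is given by its brightest probe. Ratios of different probes of 1 gene had a median SD of 0.229 for CRL1505 against LPS, 0.216 for CRL1506 against LPS and 0.324 between the strains. This SD serves below as a yardstick of measurement spread, and it holds no variation between cultures. A change was counted at 2-fold, and the 7 other normalizations that were tried are given as a range where they matter. They shift the ratios of most genes together, with a median over the genes well above background on both arrays between −0.45 and 0.35 for CRL1505 + LPS against LPS.

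Sequences are shown for the probes on which the reading of a gene turns. The probe of *Bcl2* that differed between the strains and a probe of *Bcl2l11* fall on the parts that define the family, and the probe of *Bcl2a1c* is a separate reading of an A1 paralog. In *Bcl2*, the capitals mark bases 17 to 28, which encode the end of the BH1 domain. In *Bcl2l11*, they mark bases 3 to 17, which encode the centre of the BH3 domain. The *Bcl2a1c* probe carries no capitals. Positions are on mm9, as in the files. The *Bcl2* probe is at chr1:108608970-108609029 (minus strand), the *Bcl2l11* probe spans chr2:127972893-127983988 (plus strand), a stretch of 11096 bases that 60 bases can cover only across an exon junction, and the *Bcl2a1c* probe is at chr9:114239422-114239481 (plus strand).
Bcl2 probe: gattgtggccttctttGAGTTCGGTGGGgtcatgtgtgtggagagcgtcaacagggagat
Bcl2l11 probe: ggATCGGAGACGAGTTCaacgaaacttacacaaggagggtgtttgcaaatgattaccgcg
Bcl2a1c probe: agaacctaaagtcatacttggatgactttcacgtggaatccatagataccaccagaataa

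The mouse genome carries several copies of the A1 gene, and their promoters are shown because 2 probes of this group gave the same direction. In RefSeq (GRCm38.p6), the windows from 250 bases before to 50 bases after the start sites of *Bcl2a1d* and *Bcl2a1a* aligned over 294 bases with 98.0% identity. *Bcl2a1d* and *Bcl2a1b* aligned over 250 bases with 98.8% identity, and *Bcl2a1d* and *Bcl2a1c* over 184 bases with 96.2% identity. The 60 bases below surround a match to the AP-1 motif TGANTCA, which begins 114 bases before the start site of *Bcl2a1d*, 120 before that of *Bcl2a1a* and 164 before that of *Bcl2a1b*, as annotated. Capitals mark the 7 bases of the match. In *Bcl2a1c* they mark the aligned bases, which differ by C6G, counted from 1 at the first capital, and hold no match. The windows lie at chr9:88731925-88731984 (minus strand), chr9:88956780-88956839, chr9:89199089-89199148 and chr9:114329885-114329944 (each plus strand).
Bcl2a1d promoter: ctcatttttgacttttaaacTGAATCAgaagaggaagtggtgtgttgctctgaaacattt
Bcl2a1a promoter: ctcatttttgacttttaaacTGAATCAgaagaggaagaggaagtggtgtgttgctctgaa
Bcl2a1b promoter: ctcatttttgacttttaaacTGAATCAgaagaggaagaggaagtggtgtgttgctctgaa
Bcl2a1c promoter: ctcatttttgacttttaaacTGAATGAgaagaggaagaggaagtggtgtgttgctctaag

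On both strands, 5 motifs were searched, namely those of NF-kappaB, FOXO (TGTTTAC), AP-1 (TGANTCA), CRE (TGACGTCA) and GAS (TTCNNNGAA). RefSeq windows were at hand for 9 of the 10 genes, with 14 windows because some genes have several start sites. The AP-1 motif was in 1 of these windows, that of *Bcl2a1d*, and in 7.81% of all 32851 windows of this length. NF-kappaB matched in 2, of *Bcl2l1* and *Bbc3*, against 4.51% of all windows. FOXO matched in 2, of *Bcl2l11* and *Bbc3*, against 3.65%. CRE and GAS matched in 0, against 1.79% and 8.3%. These are matches of letters, and binding was not measured.

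Of the antiapoptotic genes, *Bcl2a1d* differed most with CRL1505. Its relative signal was 36.8 with LPS alone, 74.7 with CRL1505 and 36 with CRL1506. The CRL1505 + LPS array stood apart, at 2.03-fold the level of LPS (log2 ratio 1.02), while CRL1506 + LPS was within the probe SD of LPS (log2 ratio −0.03). The ratio to LPS with CRL1505 had 90.4% of 15603 genes at or below it. It ran from 0.52 to 1.32 over the 7 other normalizations and passed 2-fold in 2 of them, with the same sign in all 7. The *Bcl2a1d* probe (mm9, chr9:88618165-88618224, minus strand) lists transcripts of *Bcl2a1d*, *Bcl2a1b* and *Bcl2a1a*, so its signal belongs to these paralogs together. On the LPS array, 4 of its 20 nearest spots had uneven pixels.

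*Bcl2a1c*, the A1 paralog with a probe of its own, had relative signals of 2.21, 5.41 and 2.32 in the same order of conditions. The log2 ratio to LPS was 1.29 with CRL1505 (0.78 to 1.58 over the normalizations) and 0.07 with CRL1506. Both A1 probes were thus high on the CRL1505 + LPS array and alike on the others. The longest run of bases that the probes share is 6, though this does not show that each binds its own transcript alone.

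*Bcl2l1* was the member with the lowest ratio under CRL1506. The brightest probe (mm9, chr2:152606404-152606463, minus strand) gave a relative signal of 66.7 with LPS alone, 62.2 with CRL1505 and 41.4 with CRL1506. With CRL1506 the level was 1.61-fold lower (log2 ratio −0.69, with −0.89 to −0.51 over the normalizations), and 7.1% of 16279 genes were at or below that ratio. With CRL1505 the same probe gave −0.10, within the probe SD. *Bcl2l1* had 5 probes, all well above background on every array, and all 5 were lower than under LPS with both strains, although a shift by the median in place of the 75th percentile gave 0.19 for the brightest probe with CRL1505. Under CRL1506 they averaged −0.62 ± 0.20 (SD over 5 probes) and ran from −0.81 to −0.28. Under CRL1505 they averaged −0.52 ± 0.30 and ran from −0.88 to −0.10, so that the brightest probe gave the smallest difference of the 5. Between the strains the brightest probe gave 0.59 (0.19 to 1.08 over the normalizations, past 2-fold in 1 of 7), whereas the mean of the 5 was 0.09 ± 0.34 with 2 probes higher and 3 lower. The probes thus did not separate the strains for *Bcl2l1*. They share 1 RNA sample and are no replicates. With LPS alone the brightest read 66.7 and the others 0.574 to 1.68. Another *Bcl2l1* probe is annotated at chr2:152606400-152606446 (minus strand), which overlaps the position of the brightest. These probes share no run longer than 5 bases, so both positions cannot hold. On the LPS array, 4 of the 20 spots nearest to the brightest probe had uneven pixels.

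*Bcl2* was similar on the 3 arrays by its brightest probe, with 2.01 with LPS alone, 1.82 with CRL1505 and 1.75 with CRL1506 (log2 ratios −0.15 and −0.20). The probe with the BH1 bases shown above gave another picture, with relative signals of 1.44, 0.831 and 1.68. Its log2 ratio to LPS was −0.79 with CRL1505 and 0.22 with CRL1506, and CRL1505 + LPS was 2.01-fold lower than CRL1506 + LPS. The difference between the ratios of these probes was −0.65 with CRL1505 and 0.42 with CRL1506. The files annotate the brightest probe (mm9, chr1:108434793-108434852, minus strand) and the BH1 probe with different RefSeq transcripts of *Bcl2*. The remaining *Bcl2* probe was dim, with 0.0699, 0.0427 and 0.129, and did not pass the background on the CRL1505 + LPS array. Its log2 ratio was 0.89 with CRL1506, and it was at least 1.22-fold lower with CRL1505. With CRL1505 the 3 probes were thus all lower, the brightest by less than the probe SD, and with CRL1506 they were mixed.

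*Mcl1* differed by little, most between the strains. The brightest of its 2 probes gave 36.5 with LPS alone, 39.9 with CRL1505 and 33.0 with CRL1506, and the second gave 25.4, 30.6 and 21.8. Their log2 ratios to LPS were 0.13 and 0.27 with CRL1505 and −0.15 and −0.22 with CRL1506. Those of the second probe lay past the probe SD with both strains. Between the strains the ratios were 0.27 and 0.49. For CRL1505 the sign of the brightest probe held in 4 of the 7 other normalizations.

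**Figure D1:**
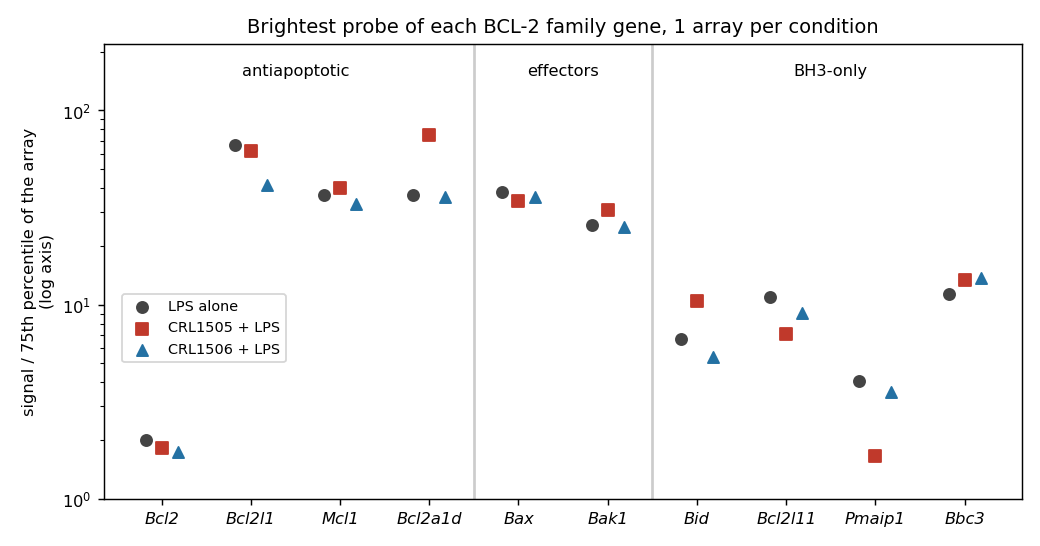
Relative signal (intensity over the 75th percentile of the array, log axis) of the brightest probe of each gene, with 1 point for each of LPS, CRL1505 + LPS and CRL1506 + LPS and no error bars, since each condition had 1 array. The CRL1505 + LPS point is the highest of the 3 for *Bcl2a1d* (74.7), *Mcl1* (39.9), *Bak1* (30.8) and *Bid* (10.4). It is the lowest for *Bax* (34.3), *Bcl2l11* (7.03) and *Pmaip1* (1.66). The heights of different genes cannot be compared.

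By brightest probes, the 2 effectors had the narrowest range of ratios of the groups, though over the fewest genes. With CRL1505 the median size of their ratios, without sign, was 0.21, beside 0.14 for the antiapoptotic genes. *Bax* had relative signals of 38.2 with LPS alone, 34.3 with CRL1505 and 36 with CRL1506, and its second probe had 9.44, 8.74 and 7.69. The log2 ratios of the 2 probes to LPS were −0.16 and −0.11 with CRL1505 and −0.08 and −0.29 with CRL1506. The first of these ran from −0.66 to 0.14 over the normalizations. On the LPS array 5 and 10 of the 20 spots nearest to these probes had uneven pixels, so that *Bax* drops out of both comparisons with LPS when uneven regions are left out. *Bak1* had 25.8, 30.8 and 25.1, which gave log2 ratios of 0.25 with CRL1505 (−0.25 to 0.55 over the normalizations) and −0.04 with CRL1506. Apart from *Bak1* with CRL1505, the brightest probes of both effectors stayed within the probe SD of LPS.

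The BH3-only genes went different ways. *Pmaip1* is a target of p53 and of stress pathways, and its product binds MCL-1 and A1. By brightest probes it had the largest difference of the 10 genes with CRL1505 and between the strains, but not with CRL1506. With a shift by the median, *Bcl2a1d* was ahead with CRL1505 (1.32 against −0.99). Between the strains, that shift put *Bcl2a1d* (1.55), *Bid* (1.44), *Bcl2l1* (1.08), *Bak1* (0.79) and *Mcl1* (0.77) ahead of *Pmaip1* (−0.59). The relative signal of *Pmaip1* was 4.05 with LPS alone, 1.66 with CRL1505 and 3.54 with CRL1506. The level with CRL1505 was 2.43-fold lower than with LPS (log2 ratio −1.28), with 5.0% of all genes at or below that ratio, and 2.13-fold lower than with CRL1506 (log2 ratio −1.09). The ratio to LPS was −1.79 to −0.99 over the normalizations and passed 2-fold in 6 of 7. With CRL1506 it was −0.19, within the probe SD. The gene had 1 probe, so no second reading exists on the array.

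*Bcl2l11*, a target of FOXO factors and a strong activator of *Bax* and *Bak1* products, was lower in part of its probes. The brightest gave 11 with LPS alone, 7.03 with CRL1505 and 9.11 with CRL1506, with log2 ratios of −0.65 and −0.28. With CRL1505 its ratio ran from −1.16 to −0.36 over the 7 other normalizations and was past 2-fold in 1 of them. The probe with the BH3 bases gave 1.91, 1.30 and 2.13, with log2 ratios of −0.56 and 0.16. The remaining 2 probes, which the files annotate with another transcript, had ratios of 0.05 and 0.01 with CRL1505 and of 0.14 and 0.56 with CRL1506. They were dim though above background, with relative signals of 0.291 and 0.108 with LPS alone. On the LPS array, 7 and 2 of the 20 spots nearest to them had uneven pixels. With CRL1505 the ratios of these 2 probes were 0.71 and 0.66 above that of the brightest probe, a gap wider than the probe SD. The mean over all 4 probes was −0.29 ± 0.37 with CRL1505 and 0.15 ± 0.34 with CRL1506, so that the direction under CRL1506 turned with the choice of probe. Between the strains all 4 probes were lower with CRL1505, from −0.72 to −0.09, although the brightest reached 0.12 under 1 of the 7 other normalizations.

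*Bid*, which caspase-8 cleaves to link death receptors to mitochondria, was the only one of the 10 genes whose brightest probe lay past the probe SD in opposite directions with the strains. The relative signals were 6.63 with LPS alone, 10.4 with CRL1505 and 5.40 with CRL1506. The log2 ratio to LPS was 0.65 with CRL1505 and −0.29 with CRL1506, and each kept its sign in the 7 other normalizations (0.14 to 0.94 and −0.49 to −0.19), although the ends of these ranges nearest to 0 lie within the probe SD. CRL1505 + LPS was 1.92-fold above CRL1506 + LPS. The other *Bid* probe did not pass the background on any of the 3 arrays. Among probes that were not the brightest of their gene, the *Bcl2* probe with the BH1 bases and the second probe of *Mcl1* also lay past the probe SD in opposite directions. So did the dim *Bcl2* probe, with a bound of −0.29 with CRL1505 and a ratio of 0.89 with CRL1506.

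*Bbc3*, another p53 target, was the only member above LPS with CRL1506 by its brightest probe, although *Bcl2a1d*, *Bak1* and *Bax* were so too under some of the other normalizations. It had 11.3 with LPS alone, 13.4 with CRL1505 and 13.8 with CRL1506, with log2 ratios of 0.24 and 0.28. The first lay between −0.26 and 0.54 over the normalizations and the second between 0.08 and 0.38. The strains differed by −0.04.

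**Figure D2:**
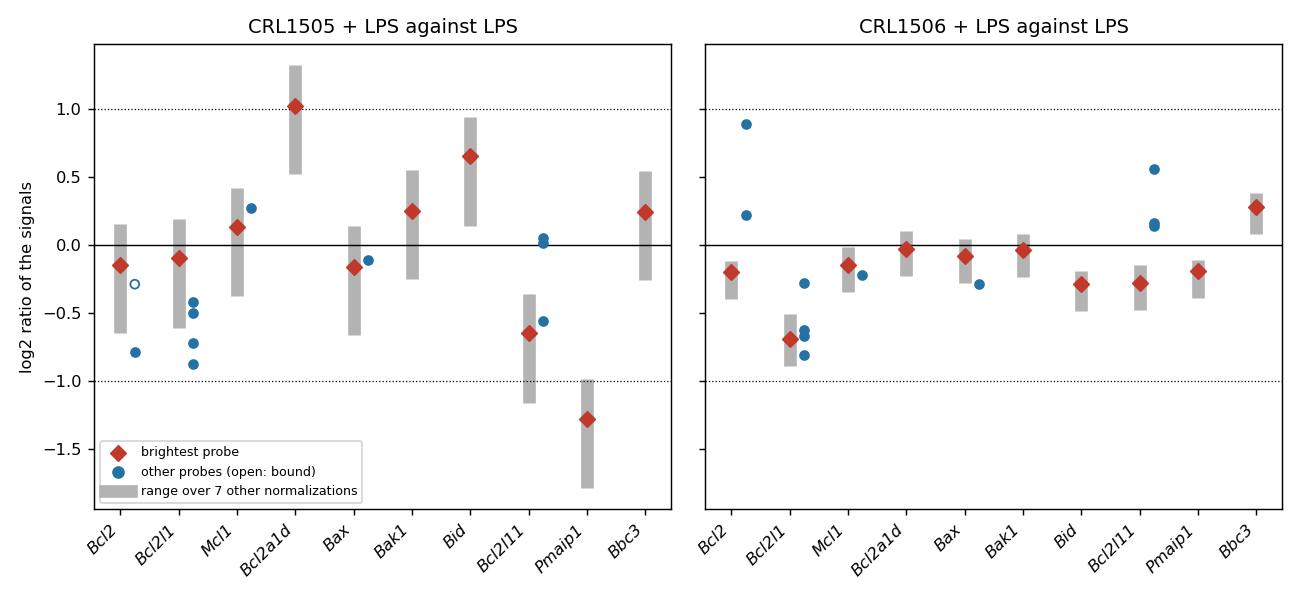
Log2 ratio to LPS of every probe that could be compared, for CRL1505 + LPS (left) and CRL1506 + LPS (right), with diamonds for the brightest probe, circles for the other probes, an open circle for a bound and grey bars for the range of the brightest probe over 7 other normalizations. Dotted lines mark 2-fold. *Bcl2a1d* (1.02) and *Pmaip1* (−1.28) are the only brightest probes past these lines, and the 5 *Bcl2l1* probes lie below 0 in both panels, although the range of the brightest reaches 0.19 with CRL1505.

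Counted as a family, the genes past 2-fold made up a share near that of all genes with CRL1505 and between the strains, and none was past it with CRL1506. With CRL1505, 2 of 10 genes (20%) were 2-fold apart from LPS, where 18.3% of the 15603 genes compared were. Of these 2, 1 was higher, as were 9.93% of all genes, and 1 lower, as were 8.41%. With CRL1506 it was 0 of 10, where 9.2% of 16279 genes were. Between the strains it was 2 of 10, again *Bcl2a1d* and *Pmaip1*, where 16.5% of 15780 genes were, 9.02% higher and 7.47% lower with CRL1505. The median log2 ratio of the 10 genes to LPS was 0.01 with CRL1505 and −0.17 with CRL1506, and that of all genes 0.01 and −0.06. The median size of the ratio, without its sign, was 0.25 against 0.41 for all genes with CRL1505 and 0.20 against 0.26 with CRL1506. At any size, 9 of 10 genes were below LPS with CRL1506, where 57.3% of all genes were, although *Bcl2a1d*, *Bak1* and *Bax* kept that sign in 3, 3 and 4 of the 7 other normalizations. With CRL1505 it was 5 of 10, where 49.3% of all genes were. The strain comparisons share the LPS array and are not independent.

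The groups were also set against each other. The median ratio of the 6 proapoptotic genes minus that of the 4 antiapoptotic genes was 0.03 with CRL1505 and 0.04 with CRL1506, a difference in which a shift of a whole array cancels. Both groups held genes that went either way with CRL1505, and the difference depended on the summary, since with means, chosen after seeing the data, it was −0.38 with CRL1505 and 0.17 with CRL1506. Between the strains it was −0.49 with medians, from −0.49 to −0.23 over the other settings, and −0.55 with means. All 4 antiapoptotic genes were higher with CRL1505 than with CRL1506, by 0.06 to 1.05 on the log2 scale, where 51.6% of all genes were higher. Of the proapoptotic genes 2 were higher and 4 lower, from −1.09 to 0.94. For *Bcl2*, *Bcl2l1* and *Mcl1* the order of the strains depended on the probe or the normalization, since *Bcl2* kept its sign in 2 of 7 other normalizations, *Mcl1* kept it in 4 of 7, and the mean over the probes of *Bcl2l1* was near 0.

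**Figure D3:**
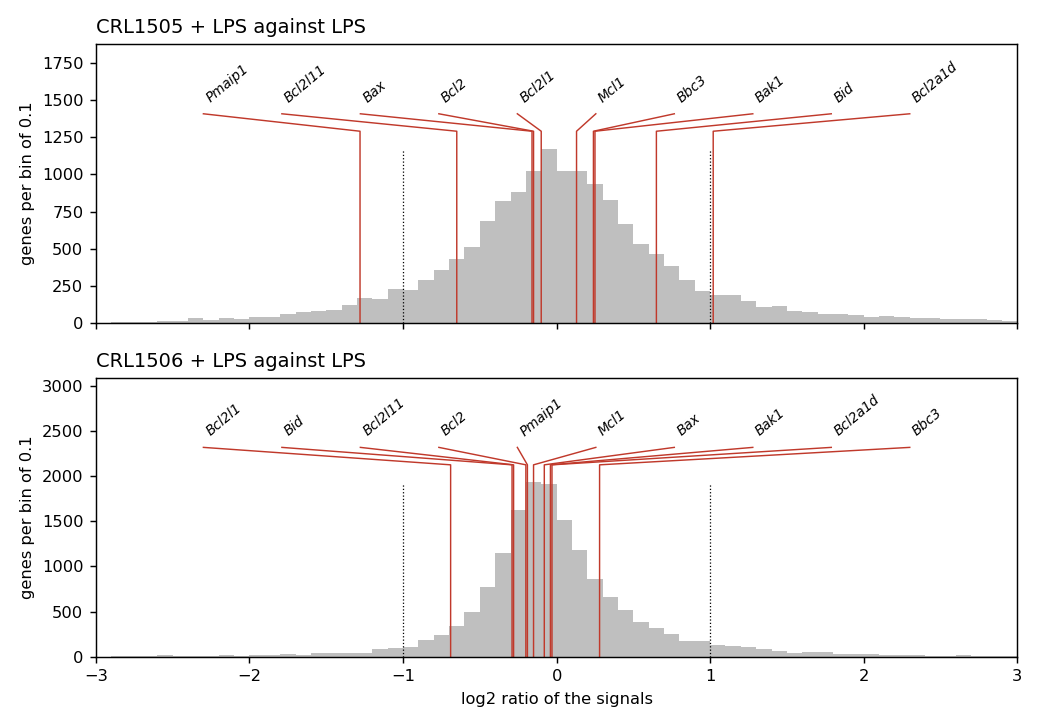
Number of genes in each bin of 0.1 of the log2 ratio to LPS (grey bars) for CRL1505 + LPS (15603 genes) and CRL1506 + LPS (16279 genes), with a red line for each of the 10 genes and dotted lines at 2-fold; genes beyond a log2 ratio of 3 in size are not drawn. With CRL1505 the lines run from −1.28 to 1.02, with 5.0% and 90.4% of all genes below these ends. With CRL1506 they run from −0.69 to 0.28, with 7.1% and 78.2% of all genes below.

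By the pattern over the 3 arrays, the genes nearest to *Bcl2a1d* were *Sgsh*, *Rab10* and *Fam110b*, at Euclidean distances of 0.0136, 0.0161 and 0.0174 between log2 values centred on their mean. Nearest to *Pmaip1* were *Rell1*, *BC030867* and *Mfng*, at 0.00879, 0.0110 and 0.0117. With only 3 arrays such a likeness is common, and 580 of 13122 genes lay within 0.25 of *Bcl2a1d* and 306 within 0.25 of *Pmaip1*.

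The rest of the BCL-2 family was less visible. Of 16 further genes, 14 had a probe under their symbol, and 9 could be compared with LPS for CRL1505. *Bcl2a1c* was the only one of them past 2-fold, and with CRL1506 it was 0 of 10. Over the array, 18.3% of all genes were past 2-fold with CRL1505 and 9.2% with CRL1506. *Bad*, a BH3-only gene tied to growth factor signaling, had log2 ratios of −0.56 and −0.30 with CRL1505 and CRL1506. *Bnip3*, a hypoxia-induced mitophagy receptor, had −0.27 and −0.80. *Bcl2l10*, *Bok*, *Hrk* and *Bcl2l15* did not pass the background on any of the 3 arrays.

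Downstream of the mitochondria, 1 of 11 genes of the caspase machinery was past 2-fold with CRL1505 and 0 with CRL1506. The shares of all genes were 18.3% and 9.2%. *Apaf1*, the scaffold of the apoptosome, had relative signals of 0.590 with LPS alone, 1.27 with CRL1505 and 0.483 with CRL1506, and a log2 ratio of 1.11 with CRL1505. *Cycs*, which encodes cytochrome c, had ratios of 0.33 and −0.17 with the strains. Of the inhibitors of apoptosis proteins, 2 of 5 genes were past 2-fold with CRL1505 and 0 with CRL1506, beside the same shares of all genes. *Xiap*, a direct caspase inhibitor, had 4.07, 8.54 and 3.95 with a ratio of 1.07, and *Birc5* (survivin), which also serves in cell division, had 46.6, 20.9 and 34.3 with a ratio of −1.16. *Birc2* had ratios of 0.58 and −0.47 with the strains and passed 2-fold in the comparison between them, with a log2 ratio of 1.05. That ratio ran from 0.65 to 1.55 over the normalizations.

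Among the regulators that act on the transcription of these genes, 3 of 17 were past 2-fold with CRL1505 and 0 with CRL1506. The shares of all genes past it were 18.3% and 9.2%. *Stat3* had 5.61 with LPS alone, 18.3 with CRL1505 and 8.30 with CRL1506, with log2 ratios of 1.71 and 0.57. *Ddit3*, which encodes the stress factor CHOP, had 1.37, 3.72 and 2.51, with ratios of 1.44 and 0.88. *E2f1*, a cell cycle factor that can also act on BH3-only genes, had 5.53, 1.33 and 5.22, with ratios of −2.06 and −0.08. *Trp53* had ratios of −0.44 and −0.40, *Foxo1* of −0.55 and −0.26 and *Foxo3* of −0.35 and −0.11. *Nfkb1* had 54.2, 89.0 and 41.5, with ratios of 0.71 and −0.38, and was 2.14-fold higher with CRL1505 than with CRL1506.

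*Pmaip1* and *Bbc3* are both p53 targets, and the other targets of p53 were mixed as well. With CRL1505, 3 of the 12 that could be compared were past 2-fold, and with CRL1506 it was 1 of 11. Beside these counts stand 18.3% and 9.2% of all genes. *Sesn1*, which encodes a stress-induced inhibitor of growth signaling, had 1.07 with LPS alone, 0.212 with CRL1505 and 0.445 with CRL1506, with log2 ratios of −2.33 and −1.26. *Phlda3*, an inhibitor of AKT, had 3.41, 1.19 and 2.50, with −1.52 and −0.45. *Tnfrsf10b*, the mouse TRAIL death receptor, passed the background with CRL1505 alone among the 3 arrays and was at least 5.26-fold higher with CRL1505 than with LPS (a bound of 2.39 on the log2 scale, with 1.31 to 2.79 over the normalizations). *Cdkn1a* and *Btg2*, which slow the cell cycle, had ratios of 0.58 and 0.72 with CRL1505 and of −0.53 and −0.52 with CRL1506. The median over the list was 0.23 with CRL1505 and −0.51 with CRL1506, beside 0.01 and −0.06 for all genes.

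Of the 5 enzymes of MCL-1 turnover, 1 was past 2-fold with CRL1505 and 0 with CRL1506. *Marchf5*, a mitochondrial ubiquitin ligase, had 7.72, 20.9 and 7.31, with log2 ratios of 1.43 and −0.08. *Fbxw7*, another ligase for MCL-1, and *Usp9x*, which removes ubiquitin from it, had 0.90 and 0.87 with CRL1505 and −0.02 and 0.47 with CRL1506. The median of the list was 0.87 and 0.30. Protein levels were not measured here. Over the 6 lists, 11 of 59 genes (18.6%) were past 2-fold with CRL1505 and 1 of 59 (1.69%) with CRL1506, beside 18.3% and 9.2% of all genes. Of these genes, 5 of 11 and 1 of 1 were past 2-fold in every other normalization that gave a value. *Apaf1*, *Xiap*, *Birc5*, *Ddit3*, *Marchf5* and *Bcl2a1c* were not, with ratios nearest to 0 of 0.60, 0.56, −0.86, 0.94, 0.93 and 0.78.

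**Figure D4:**
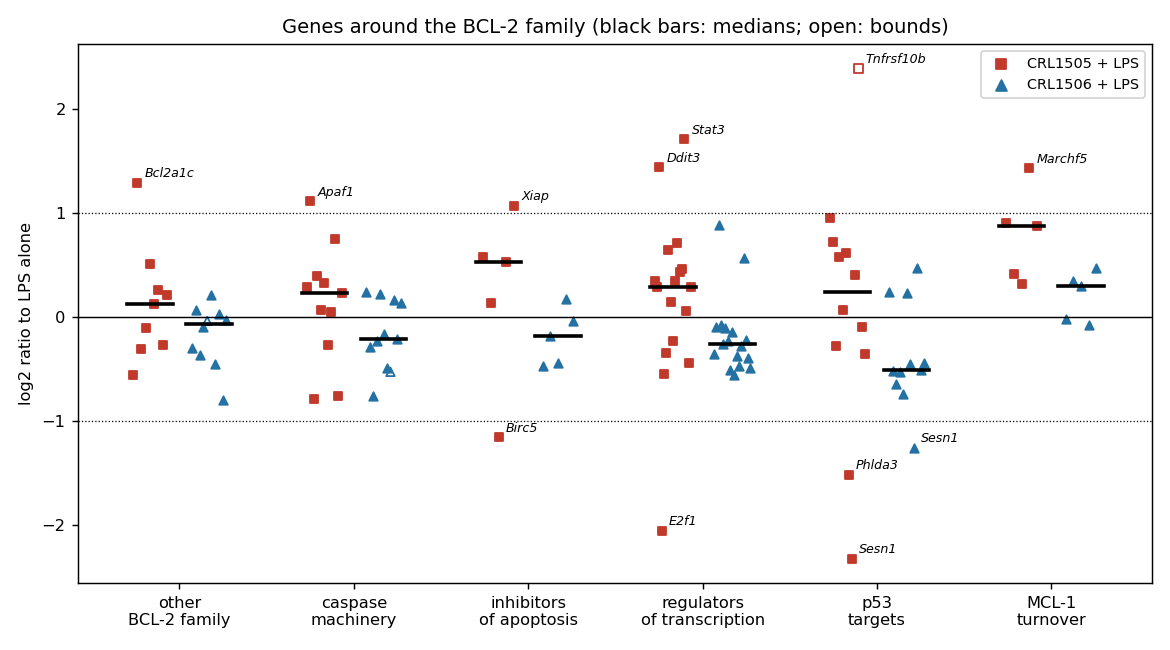
Log2 ratio to LPS of each gene of 6 lists around the 10 genes, for CRL1505 + LPS (squares) and CRL1506 + LPS (triangles), with black bars for the medians, open symbols for bounds and dotted lines at 2-fold. With CRL1505, 11 genes with names lie past the lines, and with CRL1506 only *Sesn1* does (−1.26).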

How the data were processed

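The authors deposited the Feature Extraction output of 3 Agilent arrays (version 12.0.3.1 in the files), whose processed signal is an intensity from which local background had been subtracted, without normalization between arrays. A log2 table that the authors deposited beside it had been normalized between arrays. Its median is 6.86 on each array over the gene probes, and it differed from normexp-corrected, quantile-normalized log2 intensities by a median of 0.053 to 0.058. The methods name GeneSpring and limma.

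From the log2 processed signal, each array's own 75th percentile over gene spots was subtracted (an intensity of 743.1 with LPS alone, 517.0 with CRL1505 and 697.9 with CRL1506). Outlier spots (467, 241 and 274) were left out, and saturated gene spots did not occur. Repeated spots were averaged, and a gene was given by its brightest probe. A side not well above background was set to the lowest signal well above background on that array, or to its own where higher, which makes the ratio a bound. Ratios of repeated spots had a median SD of 0.043 to 0.048 (276 to 281 probes), an error within an array only. The number of arrays limits the precision.

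All 10 members are named, with the genes past 2-fold of each list and those that a role needs. The members and lists were chosen with earlier results of these data known. A gene of the caspase list is not reported here and was left out of its counts. Alternatives were 5 other scalings, normexp with an offset of 50, the deposited table, both filters on dim probes, the mean over probes, outlier spots kept, uneven spots left out, and thresholds of 1.5-fold and 4-fold. Means in place of medians over gene groups were added after seeing the data. The procedure was tested on simulated data. RefSeq promoters are on GRCm38.p6 and probe positions on mm9. Exon and UTR annotation of mm9 was not used here. Python 3.11.15, pandas 2.3.3, R 4.3.3 and limma 3.58.1 were used.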

Additional observations from a re-analysis of the deposited data

Results flagged for a closer look

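*Bid* stood out because it differed from LPS in opposite directions on 2 single arrays. The log2 ratio to LPS was 0.65 for CRL1505 + LPS and −0.29 for CRL1506 + LPS. Over the other normalizations these ratios came as near to 0 as 0.14 and −0.19, within the probe SD. With 1 array per condition the difference between the strains was not tested, and the array of CRL1505 + LPS came from a slide of its own.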

How the results depend on the processing

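With 1 array per condition, a strain effect and a difference between hybridisations cannot be told apart, and no paired analysis was possible because the result comes from no test. With CRL1505, the main count of 2 genes past 2-fold became 1 with a shift by the median, quantile normalization, cyclic loess normalization, the 75th percentile over probes well above background on all arrays and the deposited table of log2 values. It became 4 at a threshold of 1.5-fold and 0 at 4-fold. With CRL1506, the count of 0 became 1 at a threshold of 1.5-fold. Between the strains, the count of 2 became 1 with quantile normalization, cyclic loess normalization, a shift by the 8 spike-in probes, the 75th percentile over probes well above background on all arrays and the deposited table of log2 values. It became 3 with a shift by the median, 4 at a threshold of 1.5-fold and 0 at 4-fold. The genes counted also changed. Between the strains, the shift by the median gave *Bcl2a1d* (1.55), *Bid* (1.44) and *Bcl2l1* (1.08), with *Pmaip1* at −0.59. With CRL1505 the shift by the spike-in probes kept a count of 2, of *Pmaip1* (−1.79) and *Bcl2l11* (−1.16), with *Bcl2a1d* at 0.52. The cause was not tested. The median log2 ratio with CRL1505 over the genes well above background on both arrays was 0.35 with a shift by the median and −0.45 with the spike-in probes, beside 0.06. Under the alternatives, 23 of 119 ratios of the 10 genes with CRL1505 moved by more than the probe SD. It was 2 of 119 with CRL1506 and 22 of 120 between the strains. None of the ratios past 2-fold changed sign, but with CRL1506 there was no such ratio. At any size, 8 of 119 ratios changed sign with CRL1505, 12 of 119 with CRL1506 and 14 of 120 between the strains. The proapoptotic minus antiapoptotic difference lay between −0.01 and 0.23 with CRL1505 and between −0.02 and 0.05 with CRL1506 where medians were used, and was −0.38 and 0.17 with means over the genes, an alternative chosen after seeing the data. Where a probe was dim on 1 array, as the remaining probe of *Bcl2* was with CRL1505, that comparison gives a bound.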
